A study of Saccharomyces cerevisiae with 4 samples.

Results

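The histone genes of budding yeast were examined in an ATAC-seq series. In this assay the enzyme Tn5 inserts sequencing adapters where DNA is open. The members were the 10 listed genes for core and variant histones, out of 6002 nuclear protein-coding genes with a known strand: HTA1, HTB1, HTA2, HTB2, HHT1, HHF1, HHT2, HHF2, HTZ1 and HHO1. They lie at 6 loci, because the 8 core genes form 4 divergent pairs that each share a single promoter. For every gene the peaks that overlapped its body or the 500 bp upstream of its coding start were taken, by at least 1 bp. All 10 genes were found in the annotation, and each had a peak in all 4 libraries.

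The series held 2 wild-type (WT) libraries and 2 libraries of cells labelled as lacking SWC4 (swc4Δ). Both genotypes carry the strain name BY4741, a laboratory strain of mating type a, and were grown at 30 °C to the middle of logarithmic phase, so each library averages over cells at all stages of the cell cycle. Swc4 is a subunit of the SWR1 remodeller, which puts the H2A variant Htz1 into nucleosomes, and of the NuA4 histone acetyltransferase. The labels do not state whether libraries of 1 genotype were grown separately, and p-values then measure only the spread between these libraries, which may be technical.

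The lists held 2115 to 2826 peaks per library, at a background pileup of 22.6 to 25.5 units in the authors' calls. SWC4 itself had no peak in any library or genotype list, so the peaks do not check the deletion. The mating type marker genes went against the strain name in WT. Of 7 genes expressed in a cells (STE2, STE6, BAR1, MFA1, MFA2, AGA2 and ASG7), 0 and 1 carried peaks in the WT libraries, against 7 and 6 in the swc4Δ libraries. Of 4 genes expressed in α cells (STE3, MF(ALPHA)1, MF(ALPHA)2 and SAG1), 4 and 4 carried peaks in WT, against 2 and 1 in swc4Δ. Every difference between the genotypes below is therefore also a difference between libraries whose mating type markers differ, and SWC4 and mating type cannot be told apart here.

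Core histones H2A, H2B, H3 and H4 wrap DNA into nucleosomes, and their genes are switched on together at the start of S phase. In yeast HTA1 and HTA2 code for H2A, HTB1 and HTB2 for H2B, HHT1 and HHT2 for H3, and HHF1 and HHF2 for H4. HTZ1 codes for the variant that SWR1 deposits near promoters, and HHO1 for the linker histone H1. The activators Spt10, Spt21 and SBF and the repressing HIR complex act on core promoters, though not each of them at every pair. These promoters are among the longer divergent promoters of the genome.

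All 6 histone loci were open in both genotypes, and no histone promoter peak was present in 1 genotype alone. All 10 genes had a peak in all 4 libraries, as did 35.2% of protein-coding genes. With windows of 300 bp upstream, HTA1 had none in WT replicate 2 and the other 9 still had a peak in all 4. Gained genes, those with peaks in both swc4Δ libraries but not in WT, numbered 0 of the 10 members and 5.28% of all genes. Lost genes, the reverse case, numbered 0 of the 10 and 1.23% of all genes. The loci differed in height. HTZ1 and HHT2-HHF2 had the strongest peaks, and HHT1-HHF1 and HHO1 the weakest. The 4 divergent pairs and HHO1 were higher in both swc4Δ libraries than in both WT libraries, as were 44.9% of genes with a peak in all 4. With folds divided by the library median 3 of the 6 loci were higher, all of them among these 5, beside 28.6% of genes with a peak in all 4.

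The height of a peak is given here as its deposited fold over background at the summit, which is the authors' own value. In each library every fold was a whole number of steps, within 0.01 of a step, and the deposited p-values followed from those steps by a Poisson law with a single background. The steps give the pileup behind each fold, which was 55 to 131 units at the histone summits. Whether a unit is a fragment or a single read was not stated. The 95% exact Poisson intervals drawn from these pileups cover counting error only. Against either WT library, those of swc4Δ replicate 2 overlapped at all 6 loci. The interval of swc4Δ replicate 1 lay above that of both WT libraries at HTA2-HTB2 and above that of WT replicate 2 at HTA1-HTB1, and overlapped in the other cases. The share of other regions that separate in this way was not counted. The folds were not scaled here, and swc4Δ replicate 1 had the highest median fold of the 4 libraries over shared regions, 3.76.

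The HTA1-HTB1 promoter (chromosome IV, 914713 to 915529, sacCer3) lies between YDR224C (HTB1) and YDR225W (HTA1), the main H2A and H2B pair. Its strongest peak reached folds of 3.30 and 2.68 in WT, against 4.41 and 3.89 in swc4Δ. Both swc4Δ values lay above both WT values, and the ratio of the geometric means was 1.39. The mean fold was 2.99 ± 0.441 (SD, n = 2) in WT against 4.15 ± 0.372 (SD, n = 2) for swc4Δ (exact permutation p = 0.333, two-sided). That is the smallest p that 2 against 2 libraries allow, so no exact permutation test of a single value in this design could pass 0.05.

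The HTA2-HTB2 promoter (II, 235793 to 236491) lies between YBL003C and YBL002W, which hold the second copies of the H2A and H2B genes. Its folds were 2.84 and 2.92 in WT, against 4.53 and 3.51 in swc4Δ. The groups did not overlap, although the 2 swc4Δ libraries stood further from each other than the lower of them stood from WT. The ratio was 1.39, from means of 2.88 ± 0.0587 (SD, n = 2) and 4.02 ± 0.723 (SD, n = 2; exact permutation p = 0.333). Within a library the HTA1-HTB1 peak was 1.16 and 0.918 times the HTA2-HTB2 peak in WT, and 0.974 and 1.11 times in swc4Δ. Neither H2A-H2B promoter was thus the taller one in every library.

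The HHT1-HHF1 promoter (II, 255685 to 256330) lies between YBR009C (HHF1) and YBR010W (HHT1), an H3 and H4 pair on the same chromosome as HTA2-HTB2. It was the weakest of the 4 pairs in every library, with folds of 2.54 and 2.44 in WT, against 3.39 and 3.21 in swc4Δ. In these deposited folds the replicates of each genotype lay close together and the genotypes apart. The ratio was 1.32, from means of 2.49 ± 0.0712 (SD, n = 2) and 3.30 ± 0.128 (SD, n = 2; exact permutation p = 0.333). The counting intervals of the WT and swc4Δ libraries overlapped in every comparison, and with folds divided by the library median the genotypes overlapped too.

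The HHT2-HHF2 promoter (XIV, 576051 to 576726) lies between YNL031C (HHT2) and YNL030W (HHF2), the other H3 and H4 pair. It was the tallest of the 4 pairs in every library, with folds of 3.77 and 3.56 in WT, against 5.20 and 4.49 in swc4Δ. The swc4Δ values were again both above WT, with a ratio of 1.32 and means of 3.67 ± 0.148 (SD, n = 2) and 4.85 ± 0.502 (SD, n = 2; exact permutation p = 0.333). Within a library it was 1.48 and 1.46 times as tall as HHT1-HHF1 in WT and 1.53 and 1.40 times in swc4Δ. The contrast between the H3-H4 pairs therefore held in all 4 libraries, and its range overlapped between genotypes (exact permutation p = 1).

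The HTZ1 gene (YOL012C, XV, 303579 to 303983) had the tallest histone peak in WT. Its folds were 5.29 and 4.20 in WT, against 5.00 and 4.45 in swc4Δ, so that both swc4Δ values fell between the WT values. The means were 4.75 ± 0.773 (SD, n = 2) and 4.73 ± 0.390 (SD, n = 2; exact permutation p = 1). In WT replicate 1 the peak ranked 12 of 2354 by fold, and in WT replicate 2 it ranked 93 of 2115. In the swc4Δ libraries it ranked 325 of 2826 and 162 of 2368. Because HTZ1 shares this region with PLB3, a phospholipase gene whose coding start lies 1365 bp away, the peak cannot be assigned to HTZ1 alone.

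The linker histone gene HHO1 (YPL127C, XVI, 308828 to 309604) had the lowest peak of the 6 loci in all 4 libraries. Its folds were 2.50 and 2.24 in WT, against 2.92 and 2.72 in swc4Δ. The swc4Δ values were both above WT by a smaller ratio of 1.19, from means of 2.37 ± 0.183 (SD, n = 2) and 2.82 ± 0.141 (SD, n = 2; exact permutation p = 0.333). Its promoter is shared with NAN1, a ribosome biogenesis gene whose start lies 605 bp away. Over the 18 tests of fold, summit place and width the smallest adjusted p was 0.923.

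**Figure D1:**
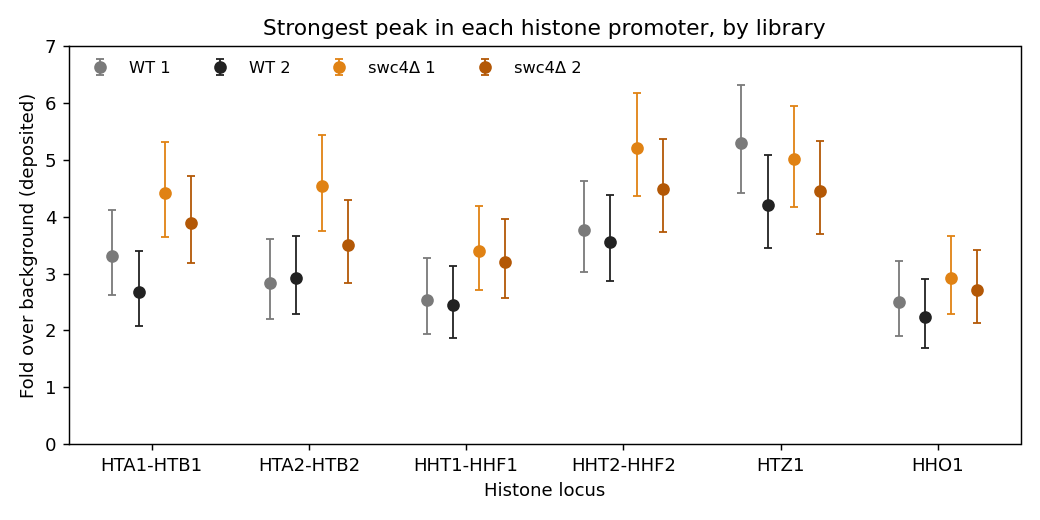
Deposited fold over background (vertical axis, linear from 0) of the strongest peak in each of the 6 histone promoters (horizontal axis), 1 point per library with WT in grey and black and swc4Δ in orange and brown; bars are 95% exact Poisson intervals for counting error. At the 4 divergent pairs and HHO1 both swc4Δ points lie above both WT points, while at HTZ1 the swc4Δ points, 5.00 and 4.45, lie between the WT points, 5.29 and 4.20.

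These differences have to be read against a general one, since folds were also higher in swc4Δ at many other genes. Among the 2114 genes with a peak in all 4 libraries, 44.9% had a higher fold in both swc4Δ libraries and 3.41% a lower one. Of the 10 histone genes 9 were higher, on 5 separate peaks, because paired genes share theirs. The median difference was 0.40 on the log2 scale for the members and 0.23 for all these genes, with a middle range of 0.10 to 0.39 (25th to 75th percentile). HTA1-HTB1, at 0.48, exceeded 86.8% of the genes, HTA2-HTB2 at 0.47 exceeded 85.9%, HHT1-HHF1 at 0.40 exceeded 78.4% and HHT2-HHF2 at 0.40 exceeded 77.3%. HHO1, at 0.25, exceeded 52.7% and stood near the middle, while HTZ1, at 0.00, exceeded 14.4%.

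The same values were therefore divided by the median fold of the library over its 1328 regions with a peak in all 4 libraries. These medians were 3.01 and 2.68 in WT, against 3.76 and 2.94 in swc4Δ, so that of swc4Δ replicate 2 lay below that of WT replicate 1. On that scale HTA1-HTB1 had relative folds of 1.10 and 1.00 in WT, against 1.17 and 1.32 in swc4Δ, a ratio of 1.19. HTA2-HTB2 had 0.944 and 1.09 against 1.20 and 1.19, a ratio of 1.18, and HHT2-HHF2 1.25 and 1.33 against 1.38 and 1.53, a ratio of 1.13. At these 3 loci the genotypes still did not overlap.

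On the same relative scale HHT1-HHF1 overlapped, at 0.845 and 0.910 in WT, against 0.901 and 1.09 in swc4Δ, as did HHO1, at 0.831 and 0.836 against 0.775 and 0.923. HTZ1 changed side: its relative folds were 1.76 and 1.57 in WT, against 1.33 and 1.51 in swc4Δ, lower in both swc4Δ libraries with a ratio of 0.854. In this scale 28.6% of genes were higher and 25.7% lower in both swc4Δ libraries, so 6 higher members of 10, on 3 peaks, stand beside 28.6%, and the lower value of HTZ1 is a pattern that 25.7% of genes share.

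**Figure D2:**
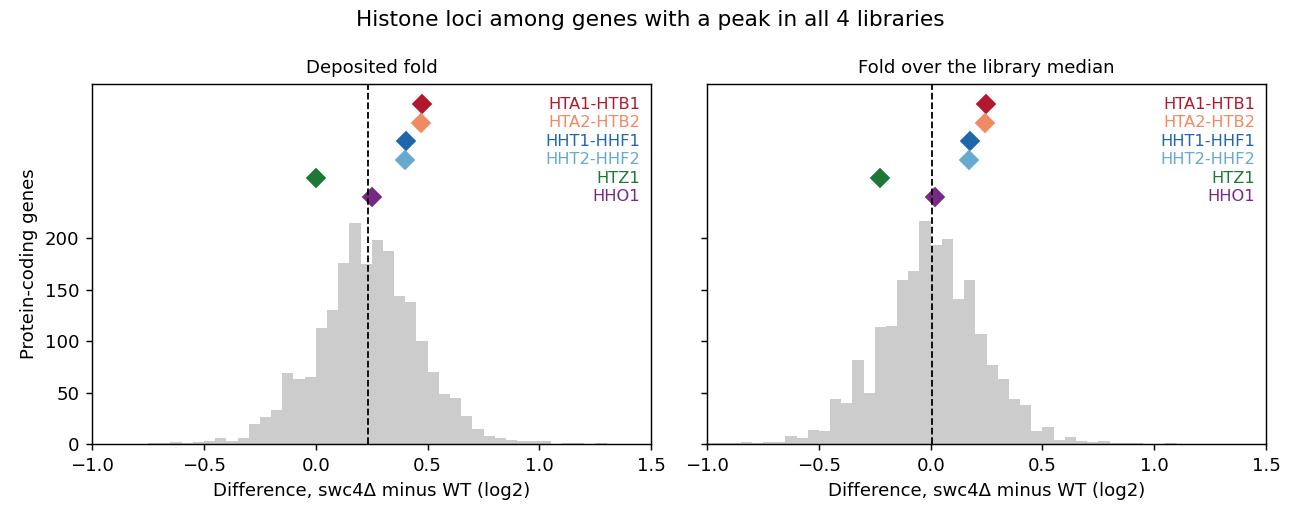
Difference in log2 fold, swc4Δ minus WT, for the 2114 protein-coding genes with a peak in all 4 libraries (grey histogram, genes per bin of 0.05) and for the 6 histone loci (diamonds, placed at arbitrary heights), with deposited folds on the left and folds over the library median on the right; the dashed line is the median of the genes. The 4 divergent pairs lie to the right of the median in both panels, HHO1 close to it and HTZ1 to its left.

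A measure that does not move when all folds of a library are divided by 1 number is the ratio between histone peaks within it. Division by the median of each chromosome can move this ratio, since the loci lie on several chromosomes, and was not applied here. The HTZ1 peak was 1.72 and 1.46 times the geometric mean of the 4 core pairs in WT, and 1.15 and 1.19 times in swc4Δ. The peak shared by HTZ1 and PLB3 thus stood less far above those of the core pairs in both swc4Δ libraries (exact permutation p = 0.333, adjusted over 5 ratios 0.556). Against the single pair HHT2-HHF2 the HTZ1 peak was 1.40 and 1.18 times as tall in WT and 0.962 and 0.992 times in swc4Δ. The order of these peaks thus differed between genotypes, but their counting intervals overlapped in each library. In swc4Δ replicate 2 the summits stood at 118 units for HHT2-HHF2 and 117 for HTZ1. HHO1 stood at 0.812 and 0.780 times the core mean in WT and at 0.673 and 0.726 times in swc4Δ, also without overlap between the genotypes. The fold difference of HHO1 itself exceeded 52.7% of the genes with a peak in all 4 libraries, near the middle. How many other genes have ratios to the core mean that separate in this way was not counted.

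Ranked within their own lists, the core pairs stood higher in swc4Δ and HTZ1 lower. The fold percentile of HTA1-HTB1 was 79.6 and 68.3 in WT, against 83.1 and 86.6 in swc4Δ, and that of HTA2-HTB2 was 65.5 and 75.5 against 84.1 and 80.9. HHT1-HHF1 had the largest difference, with 52.3 and 57.1 against 68.2 and 76.6. HHT2-HHF2, near the top of every list, had 87.8 and 87.3 against 90.3 and 93.3. HHO1 had 50.0 and 45.2 in WT, against 56.5 and 64.6 in swc4Δ. HTZ1 had 99.5 and 95.5 in WT, against 88.4 and 93.1 in swc4Δ. Of the genes with a peak in all 4 libraries, 30.6% had a higher percentile in both swc4Δ libraries and 16.6% a lower one. Since the lists differ in length, a different percentile does not by itself show a different openness.

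The order of the loci was nearly the same in every library. HHO1 came last and HHT1-HHF1 next to last in all 4. HTA1-HTB1 and HTA2-HTB2 stood in the middle and exchanged places between libraries of the same genotype, so they did not differ beyond their spread. HHT2-HHF2 and HTZ1 were at the top, with HTZ1 first in both WT libraries and HHT2-HHF2 first in both swc4Δ libraries. The counting intervals of these last peaks overlapped in each library, for example 3.72 to 5.37 for HHT2-HHF2 and 3.69 to 5.33 for HTZ1 in swc4Δ replicate 2.

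Chromosomes also differed between the genotypes as a whole, which bears on HTA1-HTB1 and HHT2-HHF2. Relative to the library, the median fold of shared regions on IV was 0.972 and 0.993 in WT, against 1.05 and 1.11 in swc4Δ, and on XIV it was 1.00 and 1.00 in WT, against 0.911 and 0.897 in swc4Δ. When folds were divided by the median of their own chromosome, HTA1-HTB1 had 1.13 and 1.01 in WT, against 1.12 and 1.19 in swc4Δ, and the genotypes overlapped. HHT2-HHF2 on XIV was then at 1.25 and 1.33 in WT, against 1.52 and 1.70 in swc4Δ, a ratio of 1.24. The pairs on II had 0.918 and 1.04 against 1.16 and 1.15 for HTA2-HTB2, and 0.822 and 0.865 against 0.869 and 1.05 for HHT1-HHF1. HTZ1 overlapped on this scale, with 1.76 and 1.54 in WT, against 1.34 and 1.55 in swc4Δ. With this scaling 26.1% of genes were higher in both swc4Δ libraries and 24.1% lower.

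The regions around each locus gave a local comparison. Within 20 kb of HTA1-HTB1, 6 other regions had a peak in all 4 libraries. Their median log2 difference of 0.47 was close to the 0.48 of the histone promoter, and 5 of the 6 were higher in both swc4Δ libraries. The difference at HTA1-HTB1 was thus close to that of its surroundings. Around HTA2-HTB2 the 4 other regions had differences of 0.02 to 0.20, all below the 0.47 of the promoter, and around HHT1-HHF1 the 3 other regions had 0.04 to 0.20, below its 0.40. These pairs on II lie about 20 kb apart, so some neighbours are shared and each pair was left out of the other's neighbours.

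Around HHT2-HHF2 the 4 other regions had differences of -0.01 to 0.37, below the 0.40 of the promoter, and none of them was higher in both swc4Δ libraries. Around HTZ1 all 6 other regions had larger differences than its 0.00, from 0.00 to 0.41. The lowest of them, about 3 kb away, was nearly level with it, at 0.0041 against 0.0014. HHO1 had a single such neighbour, at 0.27 against its own 0.25. No neighbour at any of the 6 loci was lower in both swc4Δ libraries.

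**Figure D3:**
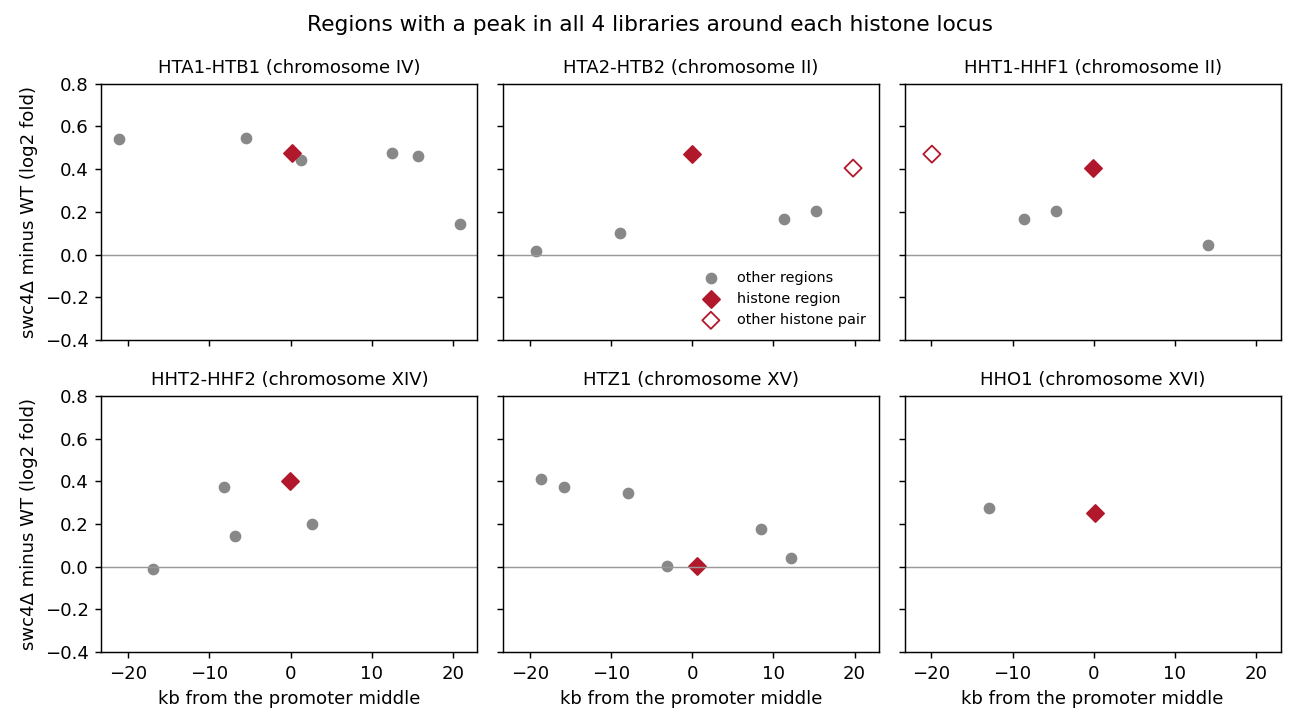
Difference in log2 fold, swc4Δ minus WT (vertical axis), of every region with a peak in all 4 libraries within 20 kb of each histone locus, against its distance in kb from the middle of the promoter; filled diamonds are the histone regions, open diamonds the other histone pair on chromosome II and grey points other regions. HTA1-HTB1 lies level with most of its neighbours, the other 3 pairs lie above theirs and HTZ1 lies below its neighbours.

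The summits showed where in the shared promoters DNA was most open. At HTA1-HTB1 the summit lay 237 and 251 bp upstream of HTB1 in WT and 252 and 288 bp in swc4Δ, which is 530 to 581 bp from HTA1. It was thus nearer to the H2B gene in every library. At HTA2-HTB2 the summit lay 273 and 280 bp upstream of HTA2 in WT and 275 and 283 bp in swc4Δ, a span of no more than 10 bp over all libraries, and 417 to 427 bp from HTB2. Here the H2A gene was the nearer one, so the summit did not keep to the same histone in both pairs.

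At HHT2-HHF2 the summit was at the same base, 294 bp upstream of HHT2, in WT replicate 2 and both swc4Δ libraries, and at 245 bp in WT replicate 1. HHT1-HHF1 had the least fixed summit. It lay 471 and 241 bp upstream of HHF1 in WT, on opposite sides of the promoter's middle, and 353 and 345 bp in swc4Δ, near the middle. The SD was 163 bp in WT and 5.66 bp in swc4Δ (n = 2 each), and the means of 356 and 349 bp differed by far less than the WT spread (exact permutation p = 1). The pileup at its summits was 59 and 60 units in WT, and its part in this spread was not tested.

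The HTZ1 summit lay 485 and 493 bp upstream of its coding start in WT and 487 and 495 bp in swc4Δ, a spread of 10 bp. The HHO1 summit lay at 442 and 450 bp in WT, on still lower pileups of 58 and 55 units, and at 395 and 451 bp in swc4Δ. No summit place but that of HTA1-HTB1 was separate between the genotypes. There the means of 244 ± 9.90 bp in WT and 270 ± 25.5 bp in swc4Δ (SD, n = 2 each) differed by 26 bp (exact permutation p = 0.333). That is about the SD of the swc4Δ libraries. The separation was narrow, with 251 bp in WT replicate 2 against 252 bp in swc4Δ replicate 1. The share of other peaks whose summits separate was not counted.

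**Figure D4:**
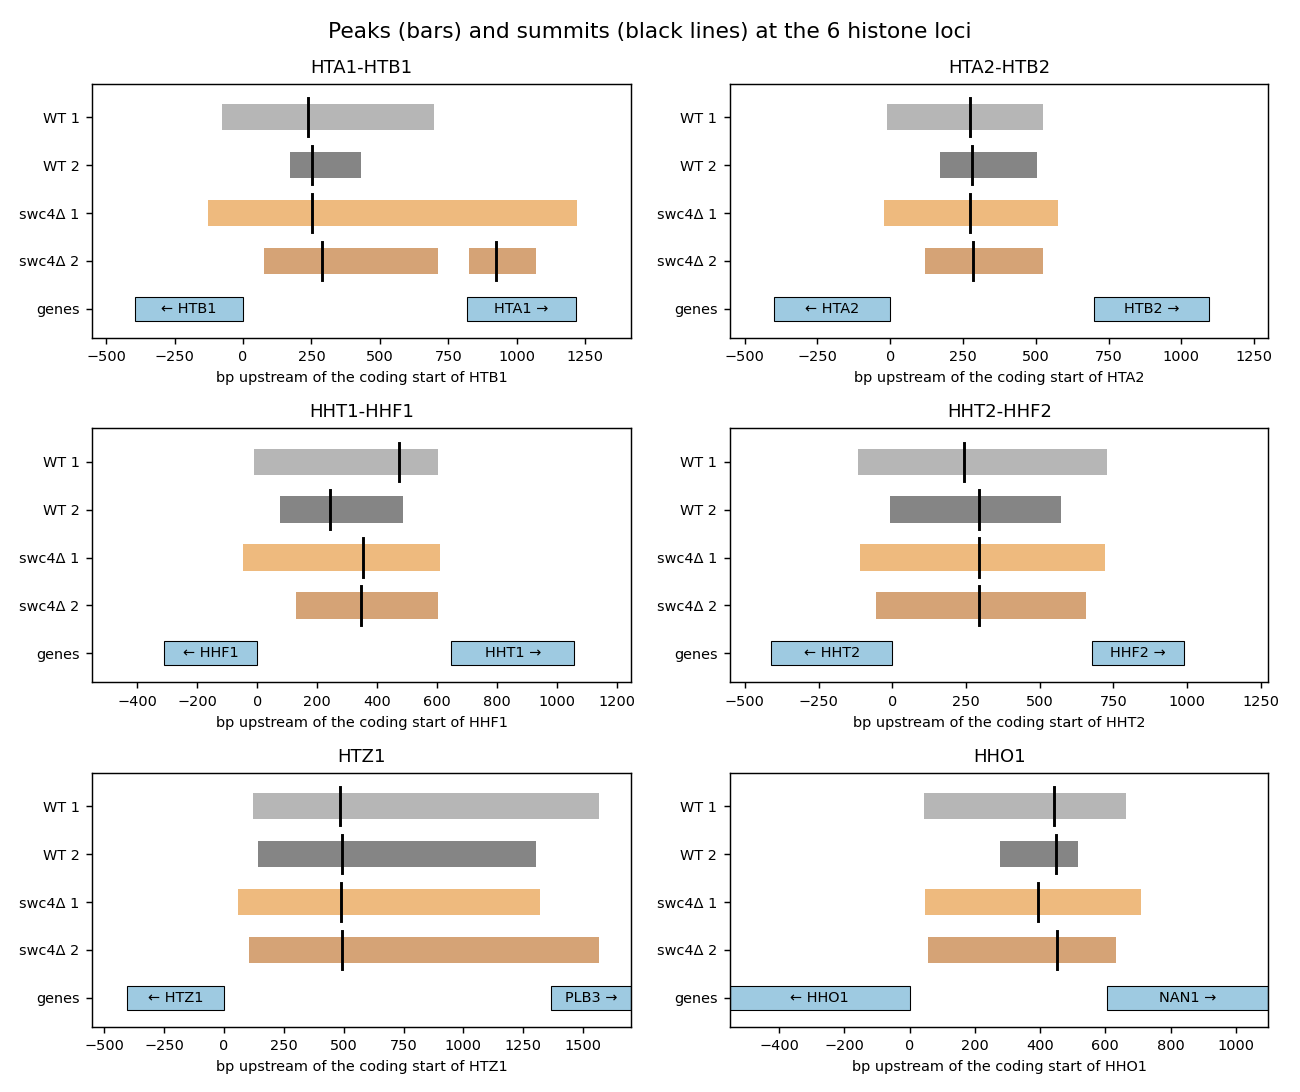
Extent of every peak (bars, 1 row per library) and its summit (black line) at the 6 histone loci, in bp upstream of the coding start of the gene on the left, with coding genes as blue boxes whose arrows give the direction of transcription. Over the 4 libraries the summits span 230 bp at HHT1-HHF1 and 10 to 56 bp at the other loci. At HTA1-HTB1 the promoter peak covers 100% of HTA1 in swc4Δ replicate 1, and a separate peak covers 60.9% in swc4Δ replicate 2. In both WT libraries peaks cover 0% of HTA1.

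At all 6 loci the WT libraries differed more from each other in peak width than the genotype means did. At HTA2-HTB2 the widths were 534 and 333 bp in WT and 598 and 404 bp in swc4Δ, at HHT1-HHF1 613 and 410 bp against 660 and 474 bp, and at HHT2-HHF2 847 and 582 bp against 831 and 712 bp. The first replicate had the wider peak at all these pairs in both genotypes. HTZ1 had peaks of 1446 and 1161 bp in WT and 1261 and 1461 bp in swc4Δ, the widest of the 6 loci in every library but swc4Δ replicate 1. HHO1 had 619 and 239 bp in WT and 661 and 575 bp in swc4Δ. No width was separate between the genotypes, with exact permutation p-values of 0.667 or 1.

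The exception in extent was the H2A gene HTA1. Its promoter peak was 775 and 261 bp wide in WT and 1346 and 636 bp in swc4Δ. In swc4Δ replicate 1 that peak ran on through the whole HTA1 coding sequence and covered 100% of it. In swc4Δ replicate 2 a separate peak (IV, 915539 to 915781) covered 60.9% of the gene, with a fold of 1.74 and a −log10 q of 2.63, which ranked 2219 of 2368. In the WT libraries peaks covered 0% of HTA1. This gene was singled out after its values were seen. Coverage of at least 50% in both swc4Δ libraries but not in WT was found for 1.25% of all genes, and the reverse for 0.733%. The part of the generally higher folds on IV in this was not tested. HTA1 and HTA2 code for nearly identical proteins, and how reads with several matches were treated was not stated.

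The coding sequences of the other members were covered little. HTB2, HHT1, HTZ1 and HHO1 were covered at 0% in all 4 libraries. HTB1, HTA2 and HHF1 were reached by the promoter peak in the first replicate of each genotype only, over 19.4% and 32.1% of HTB1, 2.76% and 5.76% of HTA2 and 3.85% and 16.0% of HHF1. HHT2 was reached in all 4, over 28.7% and 2.43% in WT, against 27.0% and 13.4% in swc4Δ, and HHF2 in the first replicates over 17.0% and 14.1%.

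The authors also deposited 1 region list per genotype, with a score per region and no replicates. In the authors' deposited table for WT, which has 1002 regions, only HHT2-HHF2 (XIV, 576091 to 576570, score 332) and HTZ1 (XV, 304181 to 305210, score 408) held a region among the 6 loci. In the authors' deposited table for swc4Δ, with 2602 regions, all 6 loci held 1. Scores in that deposited table were 613 at HTZ1, 560 at HHT2-HHF2, 512 at HTA2-HTB2, 470 at HTA1-HTB1, 338 at HHT1-HHF1 and 263 at HHO1.

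A region lay at 25.2% of genes in the authors' deposited table for WT and at 59% in that for swc4Δ, and 34.5% of genes were in the second only, as were 7 of the 10 members. The WT list therefore lacked 4 histone promoters that both WT libraries had in their own peak lists. Within each deposited list the regions of HTZ1 and HHT2-HHF2 stood at score percentiles of 85.5 and 66.5 in WT, against 90.7 and 88.0 in swc4Δ.

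Among the 1396 divergent pairs of protein-coding genes whose starts lie at most 1500 bp apart, the histone promoters were long. Their lengths of 646 to 817 bp compare with a median of 477.5 bp, and the shortest of them was longer than 67.9% of the pairs. A peak in all 4 libraries was found at 38.2% of the pairs and at 4 of 4 histone pairs. Of the 533 pairs with such a peak 43.5% were higher and 2.25% lower in both swc4Δ libraries on the deposited scale, beside 4 higher of the 4 histone pairs. On the library scale 26.5% were higher and 26.6% lower, and on the chromosome scale 24.4% and 25.7%, beside 3 higher histone pairs on either scale. These were not the same pairs, since HHT1-HHF1 overlapped on the library scale and HTA1-HTB1 on the chromosome scale. HHT1-HHF1 was higher on the chromosome scale by a narrow margin, 0.869 in swc4Δ replicate 1 against 0.865 in WT replicate 2. The median log2 difference was 0.44 for the histone pairs and 0.22 for all pairs.

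The pairs most like the histone pairs were sought by the mean absolute difference, over the 4 libraries, between their fold percentiles and the mean of the histone pairs, which was 71.3 and 72.0 in WT, against 81.4 and 84.4 in swc4Δ. The nearest was SPL2-ARO9, with percentiles of 71.5, 72.8, 82.1 and 78.3 in the same order and a mean difference of 1.93 points. ENV9-SRL1 followed at 2.30 points and SWI4-LSM4 at 2.59 points. SWI4 codes for the DNA-binding subunit of SBF, an activator of G1/S genes. With 4 libraries and 533 pairs, some pair will always lie close by this measure.

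Of 30 listed genes that regulate histone genes or code for histone chaperones, 7 had a peak in all 4 libraries, beside 35.2% of all genes, and 8 had none in any library, beside 31.2%. Of the others 2 were gained, 1 was lost and 12 had other combinations. The gains were 2 of 30 beside 5.28% of all genes, and the loss 1 of 30 beside 1.23%. The gained genes were SWI4 and MBP1, which code for the DNA-binding subunits of SBF and MBF, and the lost gene was HPC2, which codes for a subunit of the HIR repressor of histone genes.

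At SWI4 (V, 382595 to 385876) the gained peak had folds of 2.52 and 2.23 in swc4Δ and summits 480 and 479 bp upstream of the start. A taller peak, 1133 to 1139 bp upstream and next to LSM4, was found in every library and reached folds of 3.18 and 2.84 in WT, against 4.57 and 3.62 in swc4Δ. The gain at SWI4 was thus a second peak between SWI4 and LSM4, where WT already had a peak nearer to LSM4. At MBP1 (IV, 352877 to 355378) the gained peaks had folds of 1.97 and 1.81 with summits 479 and 610 bp upstream. At HPC2 (II, 653356 to 655317) the lost peaks had folds of 1.99 and 1.88 in WT, with summits 555 and 536 bp upstream. These summits, and that of MBP1 in swc4Δ replicate 2, lay outside the window of 500 bp, which the HPC2 peaks overlapped by 83 and 77 bp.

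Of the 7 regulators with a peak in all 4 libraries, 2 were higher in both swc4Δ libraries and 0 lower on the deposited scale. Of all genes with such a peak 44.9% were higher and 3.41% lower. On the library scale 1 regulator was higher and 4 were lower, beside 28.6% and 25.7% of those genes. The median log2 difference of the 7 regulators, 0.12, was below the 0.23 of all genes and the 0.40 of the histone genes. The 2 higher ones were NHP6B, a high-mobility-group protein gene with folds of 3.39 and 3.08 in WT, against 4.57 and 3.62 in swc4Δ, and RLF2, the gene of the largest subunit of the chromatin assembly factor CAF-1, with 2.37 and 2.08 against 2.44 and 2.53. The genes lower on the library scale were HIR3, which codes for a HIR subunit, ASF1, for an H3-H4 chaperone, YTA7, for a chromatin-bound ATPase, and CAC2, for another CAF-1 subunit. On the deposited scale these 4 overlapped between genotypes, for example 4.91 and 5.00 in WT, against 6.11 and 4.76 in swc4Δ at CAC2.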

How the data were processed

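ATAC-seq was measured in 4 libraries, 2 per genotype, grouped by their titles. The submitters' processing notes name Bowtie2 2.3.1 and the build sacCer3, with Trim Galore 0.5.0, SAMtools 1.4, Picard 2.18.7 and, for deepTools, version 1.5.11. The peak caller and read shifting are not given in the sources used here. In the deposited peak lists, 1 per library, the authors gave each peak a fold (a ratio over background), a −log10 p and a −log10 q, and a score. The authors' 2 genotype lists give a score per region whose meaning is not stated, and their genotype comes from the code they share with the library lists.

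The annotation was RefSeq's gene table for R64 (the same assembly as sacCer3), and systematic names gave the strand. The strongest peak by deposited fold was taken per window. Fold percentiles are mid-ranks within a list. Exact permutation tests (scipy 1.17.1) were two-sided, with Benjamini-Hochberg adjustment. Functions were tested on simulated data. The members, lists and tests were chosen with earlier results of these data known, and members and regulators were named by rule: all members, gained or lost regulators, and the 3 pairs most alike. HTA1 coverage, the within-library ratios, the neighbours, and the NHP6B, RLF2, HIR3, ASF1, YTA7 and CAC2 values were added after the data were seen.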

Additional observations from a re-analysis of the deposited data

How the results depend on the processing

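The counts of 10 members with a peak in all libraries, 0 gained and 0 lost were the same at a −log10 q of at least 5, with equal numbers of peaks, summits with 100 bp on each side, the replicate block and each library left out. With a 50% overlap or promoters of 300 bp, 9 members had a peak in all libraries, since HTA1 had none in WT replicate 2, and 0 were gained or lost. The fold differences of the 4 pairs and HHO1 kept their direction under all alternatives. Loci higher in both swc4Δ libraries fell from 5 to 3 with folds over the library median, over the chromosome median, and with percentiles among equal numbers of peaks. The 3 loci were not the same under each of these. Loci lower in both rose from 0 to 1 with the library median and with either percentile. Leaving out 1 library gave 5 to 6 higher loci and 0 to 1 lower, the 1 without WT replicate 2.

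The difference at HTZ1 turned to -0.23 and -0.19 (log2) over the library and chromosome medians, and to -6.75 and -9.09 points as percentiles. The summit shift turned from -7 to 35.25 bp at HHT1-HHF1 and from 2 to -20.25 bp at HTZ1 with the middle of the peak. The cause was not tested. With 1 library left out, log2 fold differences ranged from 0.33 to 0.63 (HTA1-HTB1), 0.29 to 0.65 (HTA2-HTB2), 0.37 to 0.44 (HHT1-HHF1), 0.29 to 0.51 (HHT2-HHF2), 0.17 to 0.33 (HHO1) and -0.17 to 0.17 (HTZ1). Summit shifts ranged from 8 to 44 bp (HTA1-HTB1, 26 with all libraries and 165 with the middle of the peak), 0 to 49 (HHT2-HHF2), -1.5 to 6.5 (HTA2-HTB2), -122 to 108 (HHT1-HHF1), -2 to 6 (HTZ1) and -51 to 5 (HHO1), and width differences from 118 to 828 bp (HTA1-HTB1), -33 to 168 (HTA2-HTB2), -46 to 157 (HHT1-HHF1), -75.5 to 189.5 (HHT2-HHF2), -85 to 200.0 (HTZ1) and -1 to 379 (HHO1).

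Deviations of same-numbered libraries from their genotype mean correlated at 0.043 over 1328 regions. That correlation cannot show an offset common to all regions of a library, so it does not decide whether replicate numbers pair the libraries. The first replicate had more peaks in both genotypes, 2354 against 2115 in WT and 2826 against 2368 in swc4Δ. With the replicate block, 5 loci were higher in both pairs, the same number as without it, and the mean log2 difference at HTA1-HTB1 was 0.48. Depth limits single comparisons, since summits rested on 55 to 131 pileup units.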
